A study of Homo sapiens with 8 samples.

Results

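The immune-linked miRNAs miR-155, miR-146a, miR-146b, miR-142 and miR-223 were examined in 4 tumor-derived cell lines by small RNA-seq. The 8 mature names considered were hsa-miR-155-5p, hsa-miR-155-3p, hsa-miR-146a-5p, hsa-miR-146b-5p, hsa-miR-146b-3p, hsa-miR-142-5p, hsa-miR-142-3p and hsa-miR-223-3p, written without the species prefix below. They were taken by name from the 2588 human mature miRNA names of the expression table, with no threshold on their level. Earlier results of these data were known when they were chosen. The series comprised the ovarian cancer line ES-2, the melanoma line MV-3, the hepatocellular carcinoma line Huh-7 and the lung adenocarcinoma line A-549. All cells were parental and untreated, grew in DMEM with 10% FBS, and were harvested 48 h after seeding, with 2 biological replicate libraries per line. Each cancer type was thus represented by a single established line, so that line and tumor type cannot be told apart.

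miRNAs guide Argonaute proteins to mRNAs mainly through the seed, the bases from position 2 to 8 counted from the 5′ end, and lower the stability and translation of their targets. The miRNAs considered here are best known from blood and immune cells. miR-155 is processed from the non-coding transcript of MIR155HG and is induced in macrophages and activated lymphocytes. miR-146a is induced by NF-κB and, like miR-146b, represses TRAF6 and IRAK1, components of the same signaling pathway. miR-142 is abundant throughout the hematopoietic lineages, and miR-223 is characteristic of neutrophils and other myeloid cells. miR-155 and miR-146a are also found in epithelial and mesenchymal tumors, whereas miR-142 and miR-223 measured in tumor tissue commonly stem from infiltrating leukocytes. Cultured lines contain no such infiltrate.

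The mature sequences are shown because the names are grouped below by hairpin and by seed, and because miR-146a-5p and miR-146b-5p are read as separate species despite near identity. Sequences are those of RefSeq on GRCh38.p14, written 5′ to 3′ with the seed in capitals. All 8 names were matched.
miR-155-5p: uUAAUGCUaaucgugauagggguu
miR-155-3p: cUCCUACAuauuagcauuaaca
miR-146a-5p: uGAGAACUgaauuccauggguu
miR-146b-5p: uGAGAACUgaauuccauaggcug
miR-146b-3p: gCCCUGUGgacucaguucuggu
miR-142-5p: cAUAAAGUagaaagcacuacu
miR-142-3p: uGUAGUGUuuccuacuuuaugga
miR-223-3p: uGUCAGUUugucaaauacccca

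The seed GAGAACU was common to miR-146a-5p and miR-146b-5p, and among all matched names it was otherwise found in miR-7153-5p, which had 0 reads in these libraries. The seed of miR-142-5p recurred in miR-5590-3p, with 7 reads in all 8 libraries together. The other seeds occurred in no further matched name. Both miR-142 arms come from 1 hairpin but carry different seeds, AUAAAGU and GUAGUGU.

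The hairpins lie on 5 chromosomes of GRCh38. MIR155 is at chr21:25573980-25574044 on the plus strand, within an exon of its host transcript MIR155HG. MIR146A is at chr5:160485352-160485450 on the plus strand, within an exon of the non-coding MIR3142HG. MIR146B, at chr10:102436512-102436584 on the plus strand, overlaps no other annotated gene. MIR142 is at chr17:58331232-58331318 on the minus strand, within an exon of MIR142HG and opposite an intron of TSPOAP1-AS1. MIR223 is at chrX:66018870-66018979 on the plus strand, within an exon of MIR223HG.

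Levels are given as normalised CPM, the deposited reads per 1000000 scaled by TMM factors, or as library CPM, the reads per 1000000 miRNA reads without such a factor. The depth of the 8 libraries was 1173902 to 2670030 miRNA reads. A name was considered detected in a line if it exceeded 3 reads in each of its 2 libraries. Those 3 reads were worth 0.845 (Huh-7 replicate 1) to 2.45 normalised CPM (A-549 replicate 2). Hepatocyte miR-122-5p marked Huh-7, with 83721 ± 3531 normalised CPM (SD, n = 2) against at most 32.8 ± 9.12 in any other line. miR-200b-3p, an epithelial marker, reached 1853 ± 8.51 in Huh-7 and 1354 ± 69.6 in A-549, but 7.85 ± 1.66 in ES-2 and 17.0 ± 6.24 in MV-3. miR-200a-3p and miR-429 were likewise detected in Huh-7 and A-549 alone. The other epithelial markers did not divide the lines this way, since miR-200c-3p had 44.5 ± 1.89 in ES-2 and 79.9 ± 33.8 in A-549, and miR-141-3p was above the floor in ES-2 alone, at 5.25 ± 0.559. The melanocyte marker miR-211-5p had 0 reads in both MV-3 libraries, so this marker did not show the melanocytic origin given by the label. The RNA was from bulk cultures, in which fewer expressing cells and less miRNA per cell cannot be told apart.

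The lines differed in which of the immune-linked miRNAs they expressed above the floor. In ES-2, 5 of the 8 names were detected, comprising miR-155-5p, both miR-146 5p strands and both miR-142 strands. MV-3 and A-549 each had the same 3 names above the floor, miR-155-5p, miR-146a-5p and miR-146b-5p. Huh-7 had 2, miR-146a-5p and miR-146b-5p. miR-155-3p, miR-146b-3p and miR-223-3p were detected in none of the lines. The counts depended on the rule that both libraries exceed 3 reads. In MV-3, 5 names exceeded 3 reads in replicate 2, the deeper library. In ES-2 replicate 2, miR-155-3p with 8 reads and miR-146b-3p with 4 also exceeded 3 reads. The same held for miR-146b-3p with 7 reads in Huh-7 replicate 1. Summed over the 8 names, ES-2 libraries reached 10116 and 10537 normalised CPM, whereas A-549 libraries reached 274 and 307.

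**Figure D1:**
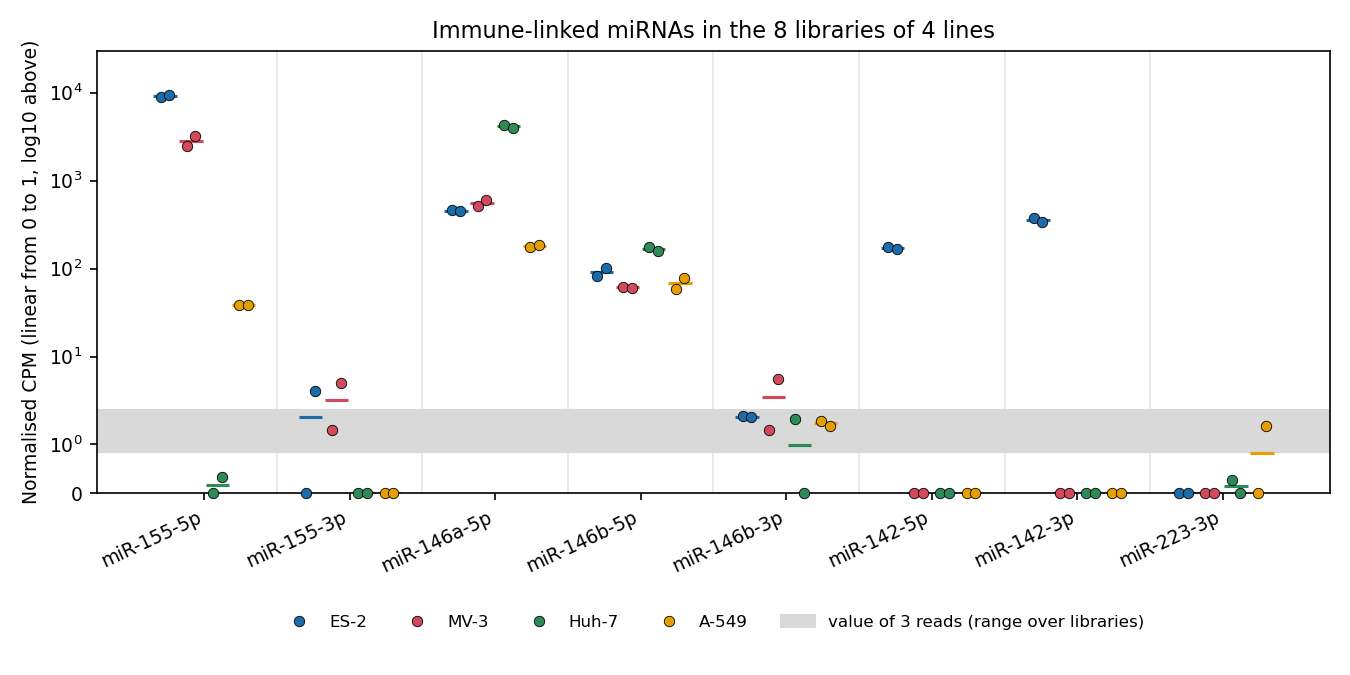
Normalised CPM of the 8 immune-linked miRNAs (vertical axis, linear from 0 to 1 and log10 above), with 1 point per library, a bar at the mean of each line and colors for the 4 lines. The grey band spans the value of 3 reads over the libraries, 0.845 to 2.45 normalised CPM. miR-155-5p points are highest in ES-2, miR-146a-5p points are highest in Huh-7, and miR-142 points leave 0 in ES-2 alone.

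Differences between lines were tested with limma on log2(normalised CPM + 1) over the 528 names with sufficient reads, and a name was called at a Benjamini-Hochberg adjusted p below 0.01. Of the 8 names, 5 entered the test. miR-155-3p, miR-146b-3p and miR-223-3p had too few reads. Both miR-142 strands entered solely through their reads in ES-2, so that a difference from the other lines was fixed by the filter. Any difference among the 4 lines was called for all 5 tested names, against 68.2% of all names tested. In 24 combinations of a tested name and a pair of lines with any read, 20 were called. These include the miR-142 calls against ES-2, which the filter had fixed. Over all names tested, the share called ranged from 25.8% (MV-3 against ES-2) to 52.3% (A-549 against Huh-7). These shares keep all 528 names in every pair, also names with no read in either line. The 24 combinations leave out the miR-142 strands in pairs without ES-2, so the counts and shares do not have the same basis.

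miR-155-5p spanned the widest range of the 5 tested names. In normalised CPM, ES-2 libraries held 9019 and 9479.8, MV-3 libraries 2461 and 3221, A-549 libraries 38.2 and 38.4, and Huh-7 libraries 0 and 0.342. The last value stands for 1 read among 1718250. No 2 lines overlapped, and the gap between replicates was small next to the gap between lines. Means were 9249 ± 326 in ES-2, 2841 ± 537 in MV-3 and 38.3 ± 0.194 in A-549 (SD, n = 2 each). Accordingly, miR-155-5p was the 18th most abundant name in ES-2, with 0.793% of miRNA reads, the 37th in MV-3, with 0.331%, and the 253rd in A-549, with 0.00230%.

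All 6 pairwise differences of miR-155-5p were called. ES-2 exceeded MV-3 by 3.26-fold, with a log2 fold change of -1.72 for MV-3 against ES-2 (SE 0.19, limma adjusted p = 0.000604). The call was lost with a pseudocount of 0.1 (limma adjusted p = 0.105) and without ES-2 replicate 1 (limma adjusted p = 0.0105). Between ES-2 and A-549 the ratio was 241-fold (log2 fold change -7.88, SE 0.19, limma adjusted p = 8.61e-07), and between MV-3 and A-549 it was 74.2-fold. In library CPM these ratios were 344-fold and 144-fold. Against the 3-read floor of Huh-7, miR-155-5p was at least 9027-fold higher in ES-2 on the normalised scale and at least 4540-fold on the library CPM scale. A-549, the lowest line with detectable miR-155-5p, still exceeded Huh-7 at least 37.4-fold, or at least 13.2-fold in library CPM. The range of line means on the log2 scale, 12.96, ranked 3rd among 528 names, whose median range was 3.09.

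miR-155-3p, the passenger strand of the same hairpin, remained close to the floor even where miR-155-5p was abundant. It had 0 and 8 reads in ES-2 and 2 and 9 reads in MV-3, with 0 reads in all Huh-7 and A-549 libraries. The 5p strand thus made up 99.97% of 31459 MIR155 reads in ES-2 (95% Wilson interval of the 3p share 0.0129% to 0.0502%) and 99.88% of 9206 in MV-3 (3p share 0.0667% to 0.214%). These intervals cover counting error only. In A-549, 0 of 109 MIR155 reads came from the 3p strand, which allows a share of up to 3.40% (Wilson).

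miR-146a-5p showed another order of lines. Huh-7 libraries reached 4323 and 4007 normalised CPM, MV-3 libraries 520.4 and 598, ES-2 libraries 459 and 447, and A-549 libraries 175 and 187. All 8 libraries were well above the floor, the lowest with 229 reads, and both Huh-7 libraries exceeded every other library. With a mean of 4165 ± 223 normalised CPM (SD, n = 2), miR-146a-5p ranked 25th in Huh-7 and took 0.695% of its miRNA reads. It averaged 559 ± 54.6 in MV-3, 453 ± 8.16 in ES-2 and 181 ± 8.38 in A-549.

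Huh-7 exceeded ES-2 by 9.19-fold (log2 fold change 3.20, SE 0.09, limma adjusted p = 6.05e-07), MV-3 by 7.45-fold and A-549 by 23.0-fold. In library CPM these ratios were 17.9, 10.7 and 63.8. The TMM factors were 1.63 and 1.70 for the Huh-7 libraries and 0.608 and 0.593 for those of A-549, the extremes of the 8. A-549 was below ES-2 (log2 fold change -1.32, SE 0.09, limma adjusted p = 4.78e-05) and below MV-3 (log2 fold change -1.62). MV-3 and ES-2, neighbors in the order, were not separated by the test. Their log2 fold change was 0.30 (SE 0.09, limma adjusted p = 0.0503), although their libraries did not overlap. Without TMM factors it was 0.74 and was called (limma adjusted p = 0.00121).

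miR-146b-5p was less abundant and varied less. Its libraries had 177 and 157 normalised CPM in Huh-7, 83.3 and 101 in ES-2, 58.5 and 77.7 in A-549, and 62.2 and 60.9 in MV-3. Huh-7 was again above every other library, ES-2 lay next, and the libraries of A-549 and MV-3 overlapped. Line means were 167 ± 14.1, 92.0 ± 12.3, 68.1 ± 13.6 and 61.5 ± 0.896 in that order (SD, n = 2 each). Huh-7 exceeded MV-3 by 2.72-fold (log2 fold change 1.42, SE 0.19, limma adjusted p = 0.000847) and A-549 by 2.45-fold (limma adjusted p = 0.00122), or by 3.89-fold and 6.82-fold in library CPM. Without Huh-7 replicate 1 both calls were lost (limma adjusted p = 0.0123 and 0.0151). The 1.82-fold difference between Huh-7 and ES-2 passed narrowly (log2 fold change 0.86, SE 0.19, limma adjusted p = 0.00862), but not by edgeR's quasi-likelihood test (adjusted p = 0.0115). ES-2, A-549 and MV-3 were not separated from each other, with log2 fold changes of -0.57 for MV-3 against ES-2, -0.44 for A-549 against ES-2 and 0.13 for A-549 against MV-3 (SE 0.19 each, limma adjusted p from 0.0656 to 0.614). The last of these turned to -0.81 and was called when library size alone was used (limma adjusted p = 0.00880). On the log2 scale the range of miR-146b-5p over the lines, 1.42, ranked 433rd of 528 names.

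**Figure D2:**
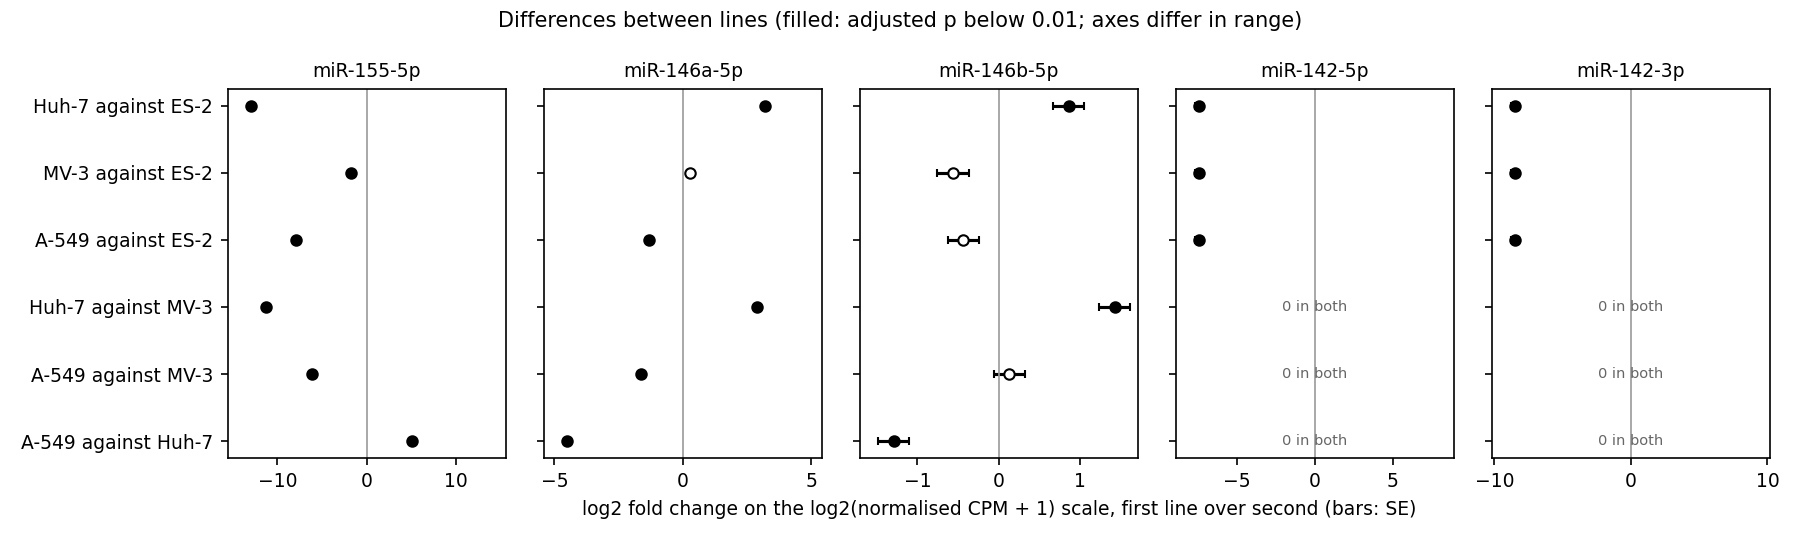
log2 fold change on the log2(normalised CPM + 1) scale (horizontal axis, ranges differ between panels) for the 5 tested miRNAs in the 6 pairs of lines, first line over second. Filled points passed an adjusted p below 0.01 in limma, open points did not, and bars are standard errors, which are often narrower than the points. The open points belong to miR-146a-5p (MV-3 against ES-2, 0.30) and miR-146b-5p (-0.57, -0.44 and 0.13). The miR-142 strands have no point in the 3 pairs without ES-2, where both lines had 0 reads.

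miR-146a-5p and miR-146b-5p share their seed and their first 17 bases, and match at 20 positions in all. Relative to miR-146a-5p and counted from the 5′ end, miR-146b-5p carries G18A and U21C, and it is longer by its last base, 23 against 22 bases. The differing bases are in capitals.
miR-146a-5p: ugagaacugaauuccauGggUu
miR-146b-5p: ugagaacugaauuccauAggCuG

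A read that ends before position 18 fits both, and how the counting treated such reads was not given in the sources used here. Therefore, the sum of both was tested as well. Summed normalised CPM was 4332 ± 237 in Huh-7, 621 ± 53.7 in MV-3, 545 ± 4.11 in ES-2 and 249 ± 22.0 in A-549 (SD, n = 2 each). Huh-7 exceeded A-549 by 4.11 on the log2 scale, and the lines differed with p = 0.00952 in an exact permutation test over all ways to divide 8 libraries into 4 pairs, which is the smallest p this design allows.

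The paralogs did not keep a fixed proportion. miR-146a-5p contributed 96.1% ± 0.115 of the reads of both in Huh-7, 90.0% ± 1.01 in MV-3, 83.1% ± 2.12 in ES-2 and 72.8% ± 3.06 in A-549 (SD, n = 2 each). The ratio of miR-146a-5p to miR-146b-5p reads was 24.4 and 25.5 in Huh-7, 8.37 and 9.81 in MV-3, 5.51 and 4.44 in ES-2, and 3 and 2.41 in A-549, so the lines did not overlap. An exact permutation test of the log2 ratio, chosen after the values were seen, gave p = 0.00952, again the smallest possible. This ratio is taken within each library and does not change with its scaling.

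**Figure D3:**
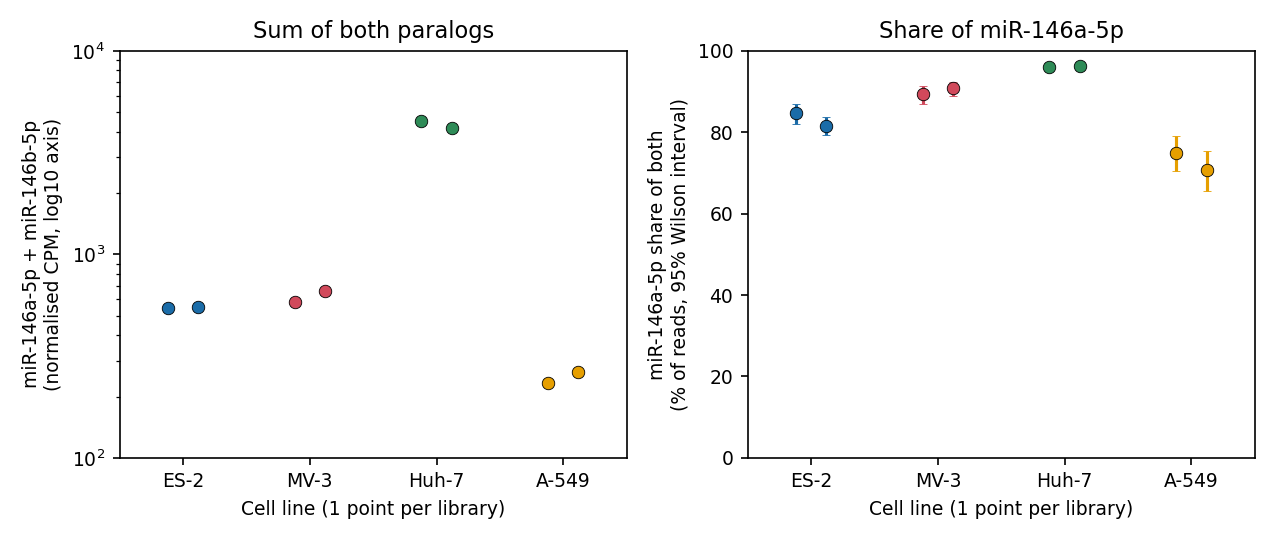
Left, summed normalised CPM of miR-146a-5p and miR-146b-5p (log10 axis) with 1 point per library. Right, share of miR-146a-5p in the reads of both (percent, bars are 95% Wilson intervals covering counting error only), which lies near 96.1% in Huh-7 and falls to 72.8% in A-549.

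The opposite strands of both miR-146 hairpins were scarce. miR-146a-3p, which was named as the partner strand and is no member of the set, was detected in Huh-7 with 72 and 55 reads, or 20.3 and 18.8 normalised CPM, and had at most 2 reads in each of the other 6 libraries. It entered the test solely through Huh-7, so that a difference from the other lines was fixed by the filter and no test is given. Huh-7 exceeded the floors of the other lines by at least 7.96-fold. Its share of MIR146A reads in Huh-7 was 0.467% (95% Wilson interval 0.392% to 0.555%). miR-146b-3p ranged from 0 to 10 reads and contributed 7 of 1096 MIR146B reads in Huh-7 (0.639%, 95% Wilson interval 0.310% to 1.31%), 7 of 323 in ES-2 (2.17%, 1.05% to 4.41%), 5 of 195 in A-549 (2.56%, 1.10% to 5.86%) and 12 of 207 in MV-3 (5.80%, 3.35% to 9.86%). These shares pool the 2 replicates of a line, and their intervals cover counting error only. The replicates differed, with 7 of 636 and 0 of 460 reads in Huh-7, and 2 of 86 and 10 of 121 in MV-3. The high share of MV-3 thus rested mainly on replicate 2. miR-146b-3p exceeded 3 reads in 3 libraries, and in both replicates of none of the lines.

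Reads of miR-142 came from the ES-2 libraries alone. miR-142-3p had 542 and 657 reads, equal to 376 and 337 normalised CPM, and miR-142-5p had 255 and 322 reads, equal to 177 and 165 normalised CPM. Both strands had 0 reads in all 6 libraries of MV-3, Huh-7 and A-549. miR-142-3p was the 97th and miR-142-5p the 123rd most abundant name in ES-2, with means of 357 ± 27.5 and 171 ± 8.24 (SD, n = 2 each). Against the floors of the other lines, miR-142-3p was at least 161-fold higher than in MV-3, at least 348-fold higher than in Huh-7 and at least 145-fold higher than in A-549. For miR-142-5p the corresponding bounds were 77.1, 167 and 69.8. limma assigned fold changes of -8.48 (SE 0.26) and -7.43 (SE 0.23) on the log2 scale to each other line, values which depend on the pseudocount of 1. The filter described above had fixed the direction of these calls.

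MIR142 gave abundant reads from both strands. The 3p strand accounted for 68.0% of 797 MIR142 reads in replicate 1 (95% Wilson interval 64.7% to 71.2%) and for 67.1% of 979 in replicate 2 (64.1% to 70.0%). The intervals of the replicates overlapped. On MIR155 and MIR146A, by comparison, the minor strand stayed under 1 read in 100 wherever the hairpin was abundant.

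miR-223-3p, the myeloid member, was not detectable in any line. It had 1 read in Huh-7 replicate 1, 2 reads in A-549 replicate 2 and 0 reads in the other 6 libraries. Its partner miR-223-5p had 0 reads in all 8. At this depth, levels of up to 3 reads, or between 0.845 and 2.45 normalised CPM depending on the library, would have gone unnoticed.

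The calls were also counted for each pair of lines. Huh-7 against ES-2 called 5 members, compared with 49.2% of all names tested, of which 2 were higher in Huh-7 (27.7% of all names), the miR-146 5p strands, and 3 were lower (21.6%), miR-155-5p and both miR-142 strands. MV-3 against ES-2 called 3 (25.8% of all names), all lower in MV-3 (14.2%). A-549 against ES-2 called 4 (41.3%), all lower in A-549 (17.6%). Between Huh-7 and MV-3, 3 members were called (47% of all names), with 2 higher in Huh-7 (26.9%) and miR-155-5p lower (20.1%). A-549 against MV-3 called 2 (39.6%), miR-155-5p and miR-146a-5p, both lower in A-549 (15.5%). A-549 against Huh-7 called 3 (52.3%), with miR-155-5p higher (28.6%) and both miR-146 5p strands lower in A-549 (23.7%). The direction of the miR-142 calls in the 3 pairs with ES-2 was fixed by the filter. Without them, 3 calls remained for Huh-7, 1 for MV-3 and 2 for A-549 against ES-2. The pairs share libraries and are not independent of each other. Leaving out the TMM factors moved the median log2 fold change of all names by 0.87, 0.40, -0.50, 0.52, -0.88 and -1.33 in these 6 pairs, in the order given.

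Markers of blood cells were examined beside miR-142 in ES-2. Lymphocyte miR-150-5p had 2 reads in ES-2, erythroid miR-451a had 1, and miR-150-3p, miR-144-5p, miR-144-3p, miR-223-3p and miR-223-5p had 0. Erythroid miR-486-5p reached 11.1 ± 6.84 normalised CPM and endothelial miR-126-3p 9.72 ± 2.95 in ES-2, the lowest means of the 4 lines for both. Summed over the 6 names of a blood and endothelial list, ES-2 libraries had 14.6 and 28.8 normalised CPM, against 1319 and 1322 in Huh-7 and 703 and 717 in A-549. Of the 3 names of that list that could be tested, 3 were higher in Huh-7 than in ES-2 (27.7% of all names), 3 were higher in A-549 (23.7%) and 1 was higher in MV-3 (11.6%), with 0 lower. The median log2 fold change of the 3 was 5.89 in Huh-7 against ES-2, where that of all names tested was 0.34. This median is the value of miR-126-5p, whose direction against ES-2 the filter favored. Only Huh-7 and A-549 held that strand above the floor, and neither ES-2 library exceeded 2 reads. miR-486-5p and miR-126-3p, detected in all lines, gave 6.15 and 5.43 in the same pair. Both miR-126 strands come from the same hairpin.

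A leukocyte list of miR-150 and miR-342, of which the latter is abundant in lymphoid cells and is encoded in an intron of EVL, was examined in the same way. miR-342-3p averaged 188 ± 18.5 normalised CPM in MV-3, 169 ± 18.4 in A-549, 136 ± 10.3 in ES-2 and 59.7 ± 4.31 in Huh-7 (SD, n = 2 each), and thus was detected in all lines, unlike miR-142. Huh-7 was lower than ES-2 (log2 fold change -1.17, SE 0.15, limma adjusted p = 0.000607) and lower than MV-3 and A-549, and no call separated the other 3 lines. In library CPM, however, A-549 exceeded Huh-7 by 1.02-fold and ES-2 exceeded Huh-7 by 1.17-fold. miR-342-5p was separated in 1 pair, with a lower level in Huh-7 against ES-2. Of the 4 names listed, 2 were tested, and both miR-150 strands stayed at or under 2 reads per line.

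A list of 10 further strands induced by inflammatory signals, of miR-21, miR-132, miR-212, miR-9, miR-147b and miR-187, was compared as well. Of its 9 tested names, 8 differed among the 4 lines, against 68.2% of all names tested. Both strands of miR-21, miR-132, miR-212 and miR-9 are among the 9, and strands of the same miRNA are not independent of each other. A-549 was higher than Huh-7 for 8 (28.6% of all names) and lower for 1 (23.7%). It was higher than MV-3 for 6 (24.1%) and lower for 0 (15.5%), and higher than ES-2 for 4 (23.7%) and lower for 0 (17.6%). These counts hold names that were above the floor in a single line, miR-212-3p and miR-212-5p in A-549 and miR-187-3p in Huh-7, whose direction the filter favored. Median log2 fold changes were 4.13, 2.26 and 1.74, against -0.09, 0.08 and 0.00 for all names. A-549, which had the lowest miR-146a-5p, had the highest miR-132-3p, which is induced by CREB, with 520.1 ± 3.47 normalised CPM against 130.2 ± 2.96 in MV-3, 113 ± 12.9 in ES-2 and 21.5 ± 3.40 in Huh-7. miR-9-5p, which is known to target NFKB1, averaged 554 ± 297 in A-549, 302 ± 74.3 in ES-2, 76.2 ± 44.1 in MV-3 and 9.73 ± 4.60 in Huh-7. miR-21-5p was abundant throughout, yet 2.44 log2 units higher in A-549 than in Huh-7 (SE 0.06, limma adjusted p = 2.63e-07), a ratio of 5.42 in normalised CPM and of 1.95 in library CPM. In Huh-7, where miR-146a-5p was highest, 6 of the 9 names were lower than in ES-2 (21.6% of all names) and 1 was higher (27.7%). The higher name, miR-187-3p, had 11.0 ± 2.81 normalised CPM in Huh-7 and 0 reads in all other lines, so its calls were fixed by the filter. Among the 6 lower names, miR-212-3p was at or under 3 reads in every library of both lines. The lower miR-21-5p of Huh-7 depended on the scaling, as the ratio of ES-2 to Huh-7 was 1.62 in normalised CPM but 0.835 in library CPM.

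**Figure D4:**
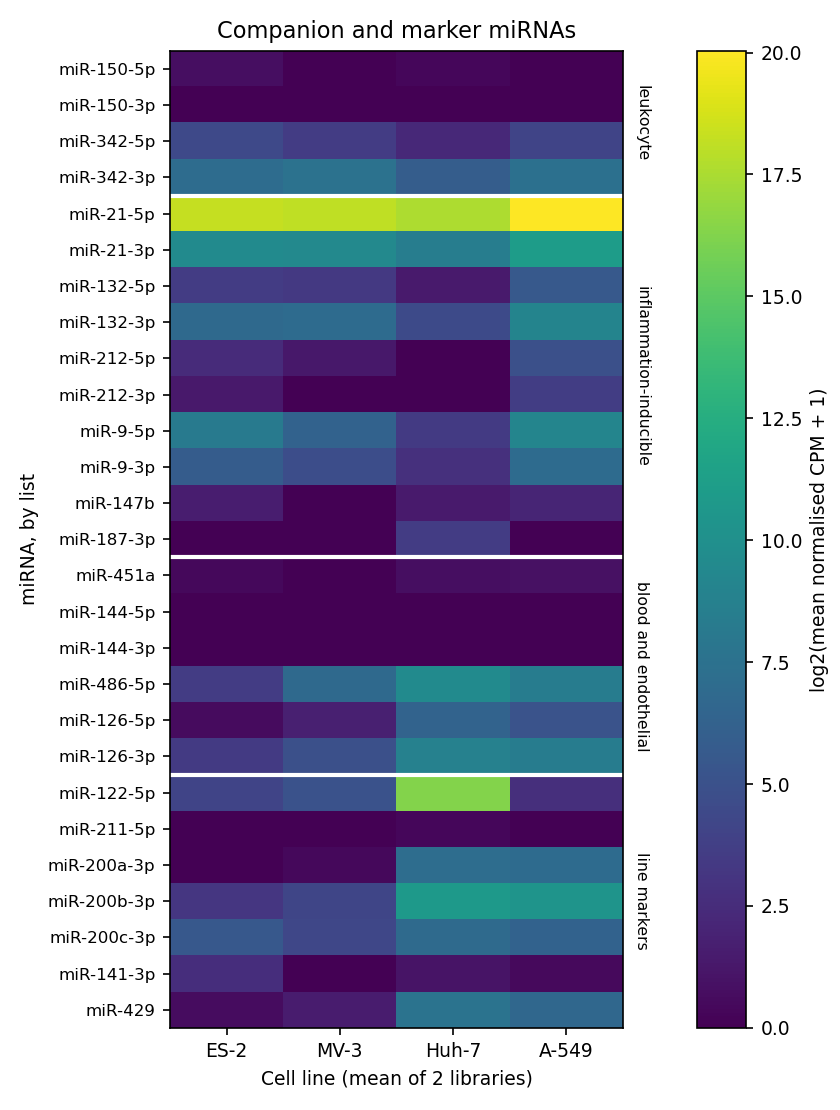
log2(mean normalised CPM + 1) of companion and marker miRNAs (rows, by list) in the 4 lines (columns, means of 2 libraries). The miR-150, miR-144 and miR-451a rows stay near 0 in every line, and the miR-132 and miR-212 rows are brightest in A-549.

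The miRNAs with the most similar profile were sought among 244 names with at least 100 normalised CPM in any line, by Pearson's r of log2(normalised CPM + 1) over the 8 libraries. As the 8 libraries form 4 pairs, r mostly reflects 4 levels and is given as a description. miR-155-5p was closest to miR-125b-5p (r = 0.994), miR-222-5p (r = 0.985) and miR-222-3p (r = 0.984). miR-125b-5p averaged 14965 normalised CPM (ES-2), 8076 (MV-3), 2277 (A-549) and 783 (Huh-7), the same order of lines as miR-155-5p with a far smaller span. For miR-146a-5p the closest names were miR-191-5p (r = 0.983), hepatic miR-122-5p (r = 0.960) and miR-885-5p (r = 0.953). For miR-146b-5p they were miR-3615 (r = 0.948), miR-15a-5p (r = 0.931) and miR-99a-5p (r = 0.923). Both miR-142 strands were closest to miR-3689f (r = 0.988 each), which had 183 and 242 reads in ES-2, 0 and 3 in MV-3, and 0 elsewhere. Between the 2 miR-146 5p strands themselves r was 0.858.

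By summed library CPM of all names with a given seed, the immune-linked seeds also differed in standing. The miR-155-5p seed UAAUGCU ranked 12th of 1854 seeds in ES-2, 21st in MV-3, 186th in A-549 and 722nd in Huh-7. GAGAACU, the miR-146 seed, ranked 22nd in Huh-7, 45th in MV-3, 49th in ES-2 and 90th in A-549. The miR-142 seeds GUAGUGU and AUAAAGU held the ranks 59 and 81 in ES-2.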

How the data were processed

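The small RNA-seq libraries were made by the authors with a NEXTflex kit from 50 ng of total RNA, and reads were trimmed with cutadapt 1.14, aligned to GRCh38 with Bowtie2 2.3.2 and counted on miRBase names with featureCounts 1.5.3, per the labels and the study's methods. The authors deposited normalised signal values scaled by TMM in edgeR 3.18.1. Dividing by a factor per library returned whole reads for 100% of values at a tolerance of 0.001. TMM factors recomputed from these reads differed by at most 3.6e-06. Entries of a name were summed (2813 entries, 2588 names).

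limma 3.58.1 (R 4.3.3, trend) was fitted to log2(normalised CPM + 1) over all 8 libraries, with 1 term per line and 4 residual degrees of freedom. After filterByExpr, 528 names remained. Fold changes on this scale understate changes of low names. Tested on simulated data of Huh-7 against ES-2 over 528 names, limma recovered 85% of 200 changes of 4-fold. The simulated spread between replicates was set to the same value for all names, so the 85% need not hold for these data. edgeR 4.0.16 and DESeq2 1.42.0 were run on recovered reads as alternatives, beside RLE factors, library size only, a pseudocount of 0.1, other filters, a replicate block, other floors and leaving out libraries. Replicates of a line differed beyond counting error, with chi-square per degree of freedom between 8.53 and 15.6. The 3-read floor and the 95% Wilson intervals cover counting error only, since reads were not collapsed to molecules as far as stated. Whether strand was used and how multi-mapping reads were counted were not given in the sources used here.

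Named miRNAs were the members, their partner strands, the lists, the line markers and the 3 most similar profiles of each member with at least 100 normalised CPM in any line. Members and lists were chosen with earlier results of these data known. Hairpin positions came from GENCODE release 44, and 2281 of 2588 names matched the RefSeq table.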

Additional observations from a re-analysis of the deposited data

How the results depend on the processing

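Counts of members called in each pair of lines and among all 4 lines stayed within 1.5 times their value under every alternative run. These counts include the miR-142 calls against ES-2, whose direction the filter had fixed, as do the unchanged values given next. In MV-3 against ES-2, miR-155-5p was the only other call, and it was lost with a pseudocount of 0.1. Of the values per member and pair, 365 kept direction and side of the threshold, 15 lost the call, 2 gained it and 2 changed sign. miR-146b-5p in A-549 against MV-3 changed sign to -0.81 with library size only (limma adjusted p = 0.00880) and ranged from -0.073 without A-549 replicate 2 (limma adjusted p = 0.794) to 0.33 without A-549 replicate 1. The cause was not tested. With library size only, miR-146b-5p in A-549 against ES-2 gained a call (-0.94, limma adjusted p = 0.00454), as did miR-146a-5p in MV-3 against ES-2 (0.74). The call of miR-146b-5p between Huh-7 and ES-2 was lost with RLE factors (adjusted p = 0.0161), no filter (0.0206), edgeR (0.0115), DESeq2 (0.0216) and without any single library of ES-2, MV-3 or Huh-7 (limma adjusted p between 0.0180 and 0.0584). miR-155-5p in MV-3 against ES-2 lost its call with a pseudocount of 0.1 (limma adjusted p = 0.105) and without ES-2 replicate 1 (0.0105), at log2 fold changes of -1.72 and -1.75. Without Huh-7 replicate 1, miR-146b-5p lost its calls against MV-3 (0.0123) and A-549 (0.0151), and 4 of the 5 members differed among the lines without either Huh-7 library. Members above the floor in MV-3 numbered 5 with a floor of at least 1 read, and 3 to 5 when a library was left out, the 5 without MV-3 replicate 1. The ES-2 count also rose without ES-2 replicate 1, by miR-155-3p and miR-146b-3p. That of Huh-7 rose without Huh-7 replicate 2, by miR-146b-3p. The summed miR-146 log2 ratio ranged from 4.02 to 4.20 without single libraries, and was 5.58 with library size only and 3.88 with RLE factors.

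Deviations of samples with the same replicate number were at most weakly correlated (r between -0.05 and 0.23 over pairs of lines). Such values do not show whether the numbers mark a shared batch. With a replicate block, 4 members were called in Huh-7 against ES-2, since miR-146b-5p lost its call (limma adjusted p = 0.0138), and the other counts kept their values. Depth limits what can be said of miR-223-3p, miR-155-3p and miR-146b-3p, and with 2 libraries per line the spread is estimated jointly over lines.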

Other observations

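Names with more than 3 reads in both libraries of a line and 0 reads in all libraries of the other lines numbered 35 for Huh-7, 9 for A-549, 7 for ES-2 and 2 for MV-3. In ES-2, miR-142-3p and miR-142-5p were the only 2 of the 7 with at least 100 normalised CPM. They were followed by miR-3689b-5p with 93 and 131 reads (65.9 ± 1.92 normalised CPM, SD, n = 2) and by miR-676-3p with 9 and 28 reads. The remaining names were miR-592 with 12 and 18 reads, miR-3154 with 10 and 4, and miR-4482-5p with 7 and 6. miR-3689b-5p bears the family name of miR-3689f, the nearest profile to miR-142. These names were chosen after their values were seen, no test was made.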
